A study of Homo sapiens with 12 samples.

Results

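Signalling by transforming growth factor beta (TGF-beta) and its relatives, the bone morphogenetic proteins (BMPs), was followed here through 10 genes: TGFB1, TGFBR2, BAMBI, SMAD2, SMAD3, SMAD4, SMAD7, ID1, ID2 and ID3. Every probe set whose only gene symbol in the platform annotation is one of these names was taken, which gave 19 of the 22215 non-control probe sets, for 10 of 11963 genes. One further probe set is annotated to both ID2 and ID2B and was left out. The values are log2 expression values made with RMA (robust multi-array average) from 12 Affymetrix arrays of the head and neck cancer lines Detroit, OECM1 and Fadu. Each line was studied as an invasion subline, collected after passage of the cells through Matrigel, and as parent cells, with 2 arrays in each of the 6 groups: Detroit invasion subline, Detroit parent, OECM1 invasion subline, OECM1 parent, Fadu invasion subline and Fadu parent. The labels give no genetic change, drug or growth factor treatment in any group, do not say whether a subline is 1 clone, and do not say whether the 2 arrays of a group came from separate cultures, so p-values measure only the spread between these arrays, which may be technical.

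TGF-beta ligands bind a type II receptor, TGFBR2, which activates a type I receptor. The activated receptor phosphorylates SMAD2 and SMAD3, which join SMAD4 and regulate genes in the nucleus. BMP receptors act through other receptor SMADs that use the same SMAD4 partner. SMAD7 is an inhibitory SMAD, and BAMBI is a pseudoreceptor without a kinase domain that dampens TGF-beta signals. ID1, ID2 and ID3 are well known BMP-induced genes whose products bind basic helix-loop-helix (bHLH) transcription factors and keep them off DNA. In squamous epithelium TGF-beta restrains growth, and in carcinomas it is also known for promoting matrix production and invasion.

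The promoters of SMAD4 and ID3 are shown because both genes differed between lines in the results below, and those of ID1 and ID2 for comparison with ID3. Each runs from 250 bases before the gene start to 50 bases after it, 5′ to 3′ on the strand of the gene, from RefSeq on GRCh38.p14. Capitals mark matches, on either strand, to CAGAC (the SMAD box), GGCGCC or GCCGNCGC (GC-rich SMAD motifs, N being any base).
ID1 promoter, chr20:31605039-31605338, plus strand: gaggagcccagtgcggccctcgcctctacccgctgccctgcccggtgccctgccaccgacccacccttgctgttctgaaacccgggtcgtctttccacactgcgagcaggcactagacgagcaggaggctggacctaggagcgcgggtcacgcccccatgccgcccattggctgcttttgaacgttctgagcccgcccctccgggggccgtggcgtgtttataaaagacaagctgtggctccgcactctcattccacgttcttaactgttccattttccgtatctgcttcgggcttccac
ID2 promoter, chr2:8681806-8682105, plus strand: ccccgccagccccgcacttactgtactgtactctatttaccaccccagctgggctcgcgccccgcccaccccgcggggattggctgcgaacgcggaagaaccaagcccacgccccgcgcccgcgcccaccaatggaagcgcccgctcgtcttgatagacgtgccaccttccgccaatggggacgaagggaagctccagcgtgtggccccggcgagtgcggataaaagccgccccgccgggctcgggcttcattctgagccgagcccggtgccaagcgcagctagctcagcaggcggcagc
ID3 promoter, chr1:23559452-23559751, minus strand: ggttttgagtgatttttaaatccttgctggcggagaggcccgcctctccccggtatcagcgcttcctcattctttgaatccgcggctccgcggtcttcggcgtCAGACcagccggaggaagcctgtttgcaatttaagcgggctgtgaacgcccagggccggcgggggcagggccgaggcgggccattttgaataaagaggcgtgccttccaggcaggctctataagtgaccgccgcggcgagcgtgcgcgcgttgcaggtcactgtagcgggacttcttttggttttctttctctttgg
SMAD4 promoter, chr18:51029963-51030262, plus strand: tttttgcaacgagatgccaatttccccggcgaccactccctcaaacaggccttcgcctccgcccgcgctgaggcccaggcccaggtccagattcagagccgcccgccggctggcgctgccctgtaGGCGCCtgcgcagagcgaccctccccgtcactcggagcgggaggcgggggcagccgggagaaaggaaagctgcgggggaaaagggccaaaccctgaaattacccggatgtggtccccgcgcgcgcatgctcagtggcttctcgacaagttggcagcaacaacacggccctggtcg
The ID3 window held 1 CAGAC, whose first base is at position -147 from the start, and the SMAD4 window held 1 GGCGCC, whose first base is at position -125, a palindrome that reads the same on both strands. The ID1 and ID2 windows held none of the 3 motifs. Among 27305 promoter windows of the same length, 45% held CAGAC, 19% held GGCGCC and 16.6% held GCCGNCGC, so these matches are common and only describe the windows.

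Array medians lay between 4.92 and 5.06 on the log2 scale. The control probe sets at the 3′ and 5′ ends of ACTB, a sign of RNA quality, differed between duplicates: the 3′ minus 5′ log2 difference was -0.28 and 0.80 in the Detroit-labelled subline (the arrays labelled Detroit invasion subline), -0.03 and -0.10 in the Detroit parent, 0.06 and 0.63 in the invasion subline of OECM1, 0.87 and 0.04 in the OECM1 parent, -0.05 and 0.40 in the Fadu invasion subline, with 0.55 and -0.23 in the Fadu parent. The root mean square difference between duplicates over all probe sets ran from 0.382 log2 units in the Fadu invasion subline to 0.747 in the Detroit-labelled subline. The part of RNA quality in the results below was not tested. A value under 4.52, the 40th percentile of all values, is called dim here, and RMA compresses differences among dim values. Where both arrays of the lower group are dim, a fold is given as at least the fold of the higher group over the dim limit, and no fold is given where both groups are dim. All members were tested, also dim ones: 15 of the 19 probe sets had at least 2 arrays above the dim limit, and 3 had none. The arrays labelled Detroit invasion subline resembled the Fadu parent more than the Detroit parent. Across the 22215 probe sets, which are not independent replicates, the group means correlated at r = 0.980 with the Fadu parent and r = 0.941 with the Detroit parent, and the members follow the same pattern, since 15 of 19 were closer to the mean of the Fadu parent than to that of the Detroit parent, against 57.6% of all probe sets. Whether the label holds was not tested, and every Detroit difference below compares the groups as labelled, with these 2 arrays called the Detroit-labelled subline. Epithelial markers were present in every line: of 7 markers with a probe set of their own, 7 lay above the dim limit on both arrays in the Detroit-labelled subline and in both Fadu groups, and 6 did in the Detroit parent and both OECM1 groups. The summed log2 level of 8 fibroblast markers was 34.9 to 37.2 in the Detroit-labelled subline, 37.6 to 40.6 in the Detroit parent, 34.7 to 36.8 in the invasion subline of OECM1, 34.0 to 37.9 in the OECM1 parent, 35.0 to 36.3 in the Fadu invasion subline and 35.1 to 36.8 in the Fadu parent. It was highest in the Detroit parent, though that range overlapped with the OECM1 parent. The marker that differed most was COL1A2, with a mean of 6.92 in the Detroit parent and 4.60 to 4.73 in the other groups. Its Detroit parent value was lower on replicate 2, at 5.35, than on replicate 1. The part of the fibroblast markers in the results below was not tested. Over all 12 arrays the summed level of 6 endothelial markers was 25.2 to 27.3 and that of 5 leukocyte markers 19.9 to 24.0, with the highest array in the Fadu parent for the first list and in the Detroit parent for the second. In bulk RNA, fewer cells of a type and less RNA per cell cannot be told apart.

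**Figure D1:**
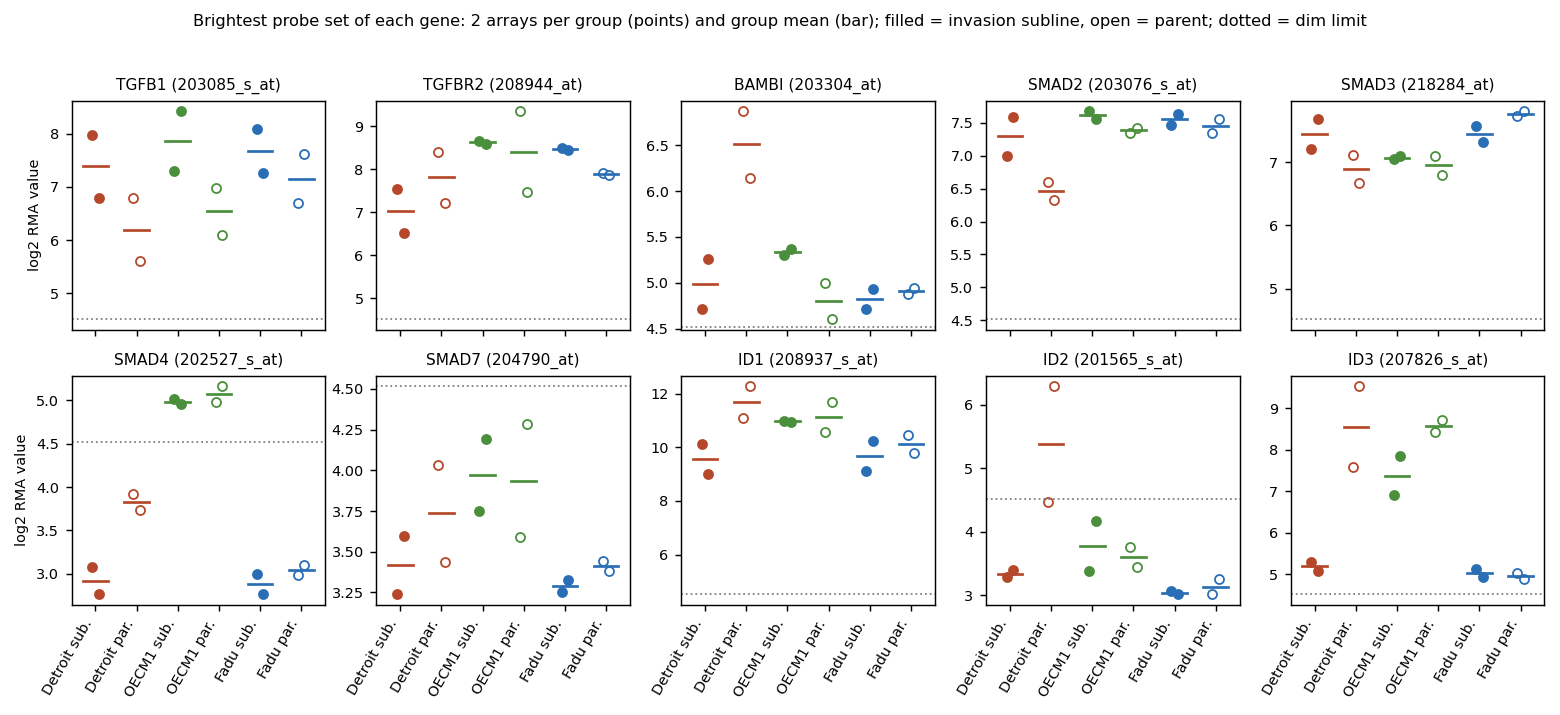
Log2 RMA values (y axis) of the brightest probe set of each of the 10 genes in the 6 groups (x axis; sub. is invasion subline, par. is parent). Points are the 2 arrays of a group and the bar their mean, filled for sublines and open for parents, and the dotted line is the dim limit of 4.52. SMAD4 lies above that line only in the 4 OECM1 arrays, and ID3 is high in the Detroit parent and both OECM1 groups.

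For the ligand and its receptor, duplicate arrays often differed by as much as the groups. TGFB1 probe set 203085_s_at read 7.98 and 6.79 in the Detroit-labelled subline, 6.79 and 5.60 in the Detroit parent, 7.31 and 8.43 in the invasion subline of OECM1, 6.99 and 6.10 in the OECM1 parent, 8.08 and 7.26 in the Fadu invasion subline, with 6.70 and 7.61 in the Fadu parent. The subline mean was above the parent mean in each line, by 1.19, 1.32 and 0.51 log2 units in Detroit, OECM1 and Fadu (SE 0.603 each), and only in OECM1 did the arrays not overlap. None passed (adjusted p = 0.495, 1.00 and 1.00). The second TGFB1 probe set, 203084_at, was close to or under the dim limit on all arrays, between 3.93 and 4.61, and gave -0.10, -0.14 and -0.08. TGFBR2 probe set 208944_at averaged 7.03 ± 0.735 in the Detroit-labelled subline, 7.82 ± 0.834 in the Detroit parent, 8.63 ± 0.0570 in the invasion subline of OECM1, 8.41 ± 1.34 in the OECM1 parent, 8.48 ± 0.0336 in the Fadu invasion subline, with 7.89 ± 0.0394 in the Fadu parent (SD, n = 2). In Fadu both TGFBR2 probe sets had subline arrays above parent arrays, by 0.59 log2 units each (95% interval -0.72 to 1.90 for 208944_at and -0.29 to 1.48 for 207334_s_at).

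BAMBI, the inhibitory pseudoreceptor, was highest in the Detroit parent, whose arrays overlapped with no other group. Its values were 4.72 and 5.26 in the Detroit-labelled subline, 6.88 and 6.15 in the Detroit parent, 5.31 and 5.37 in the invasion subline of OECM1, 4.99 and 4.60 in the OECM1 parent, 4.72 and 4.93 in the Fadu invasion subline, with 4.87 and 4.94 in the Fadu parent. All arrays outside the Detroit parent lay between 4.60 and 5.37, just above the dim limit. The Detroit parent exceeded the OECM1 parent by 1.71 log2 units (SE 0.306, adjusted p = 0.0161, limma) and the Fadu parent by 1.60 (SE 0.306, adjusted p = 0.0305), and the Detroit-labelled subline was 2.87-fold lower than the Detroit parent (log2 difference -1.52, SE 0.306, adjusted p = 0.0312). Without Detroit parent replicate 1 these 3 calls ended (adjusted p = 0.117, 0.225 and 0.226). The Detroit subline call also ended without Detroit-labelled subline replicate 1 or any array of the Fadu groups or the OECM1 invasion subline (adjusted p between 0.0569 and 0.0695), the difference from the Fadu parent without any Fadu array or any OECM1 invasion subline array (adjusted p between 0.0571 and 0.251), and the difference from the OECM1 parent when either array of the OECM1 parent was left out (adjusted p = 0.0507 and 0.0533). In OECM1 both subline arrays lay above both parent arrays, with a log2 difference of 0.54 (95% interval -0.13 to 1.22). In Fadu it was -0.08 (95% interval -0.76 to 0.59).

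Of the receptor SMADs, 0 of 7 probe sets passed in any comparison, with spans of group means from 0.68 to 1.72 log2 units. SMAD2 had its lowest group mean in the Detroit parent on each of its 3 probe sets. On the brightest, 203076_s_at, the values were 7.00 and 7.59 in the Detroit-labelled subline, 6.60 and 6.33 in the Detroit parent, 7.68 and 7.55 in the invasion subline of OECM1, 7.35 and 7.43 in the OECM1 parent, 7.47 and 7.64 in the Fadu invasion subline, with 7.35 and 7.56 in the Fadu parent. The 2 Detroit parent arrays were the lowest of the 12, and the other 10 lay between 7.00 and 7.68. The log2 difference between the Detroit parent and the Fadu parent was -0.99 on this probe set, -1.21 on 203075_at and -1.03 on 203077_s_at (adjusted p = 0.197, 0.422 and 0.281). The Detroit-labelled subline exceeded the Detroit parent by 0.83, 1.06 and 1.06 on the same probe sets (adjusted p = 0.268, 0.488 and 0.221). On 203075_at the arrays overlapped, at 4.39 and 6.35 in the subline and 4.67 and 3.95 in the Detroit parent. On 203077_s_at both Detroit parent arrays were dim, at 3.47 and 3.39, and so was subline replicate 1, at 3.88.

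SMAD3 had 4 probe sets, which disagreed. The brightest, 218284_at, averaged 7.45 ± 0.341 in the Detroit-labelled subline, 6.90 ± 0.311 in the Detroit parent, 7.07 ± 0.0320 in the invasion subline of OECM1, 6.95 ± 0.212 in the OECM1 parent, 7.45 ± 0.178 in the Fadu invasion subline, with 7.77 ± 0.0583 in the Fadu parent (SD, n = 2). In the Detroit comparison 218284_at and 205396_at gave log2 differences of 0.55 and 0.58, with subline arrays above parent arrays, while 205397_x_at and 205398_s_at gave -0.46 and -0.60 with overlapping arrays. SMAD7, itself a TGF-beta induced inhibitor, was dim on all 12 arrays, between 3.24 and 4.29, so its differences could not be read at this signal.

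SMAD4, the partner shared by TGF-beta and BMP signals, was the member with the smallest adjusted p between the parents. It was highest in OECM1, lower in the Detroit parent, and lowest in both Fadu groups and in the Detroit-labelled subline. On probe set 202527_s_at the log2 values of replicates 1 and 2 were 3.08 and 2.76 in the Detroit-labelled subline, 3.92 and 3.74 in the Detroit parent, 5.01 and 4.96 in the invasion subline of OECM1, 4.98 and 5.16 in the OECM1 parent, 2.99 and 2.77 in the Fadu invasion subline, with 2.99 and 3.10 in the Fadu parent. The OECM1 arrays were the only ones above the dim limit and did not overlap with any other group, while the Fadu arrays and those labelled Detroit invasion subline covered the same low range. The OECM1 parent averaged 5.07 ± 0.130 and the Fadu parent 3.04 ± 0.0755 (SD, n = 2 arrays each), a log2 difference of 2.03 (SE 0.159, adjusted p = 0.000237, limma) and at least 1.47-fold over the dim limit. The difference stayed past the threshold under all 21 alternatives tried (adjusted p between 0.000148 and 0.0368, limma). The Detroit parent, at 3.83 ± 0.126, was lower than the OECM1 parent (log2 difference -1.25, SE 0.159, adjusted p = 0.00246) and higher than the Fadu parent (log2 difference 0.78, SE 0.159, adjusted p = 0.0396). The last difference lies wholly among dim values and missed the threshold without either Detroit parent array, either Fadu parent array, or any subline array of Fadu or OECM1 (adjusted p between 0.0602 and 0.342). The second SMAD4 probe set, 202526_at, was dim on all 12 arrays, between 2.73 and 2.93, and showed none of this.

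Between each subline and its parent, SMAD4 differed in Detroit as labelled. The Detroit-labelled subline averaged 2.92 ± 0.222 against 3.83 ± 0.126 in the Detroit parent (SD, n = 2), a log2 difference of -0.91 (SE 0.159, adjusted p = 0.0166, limma) that lies wholly among dim values. The call ended without Detroit-labelled subline replicate 2 (adjusted p = 0.127) and without Detroit parent replicate 1 (adjusted p = 0.136). In OECM1 the log2 difference was -0.09 (95% interval -0.44 to 0.26) and in Fadu it was -0.16 (95% interval -0.51 to 0.19). The Detroit-labelled subline differed from the Fadu parent by -0.12 on the log2 scale (SE 0.159, adjusted p = 1.00).

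SMAD2, SMAD7 and SMAD4 lie on the same arm of chromosome 18, a region often lost in squamous carcinomas. A list of genes near them on that arm, not the whole arm, was therefore read beside them. In chromosome order the nearest genes with a probe set of their own are MAPK4, ME2 and ELAC1 before SMAD4, and MEX3C, DCC and MBD2 after it. ME2, which encodes a mitochondrial malic enzyme, had the same low groups as SMAD4 on all 3 of its probe sets. On probe set 209397_at its values were 3.17 and 3.22 in the Detroit-labelled subline, 6.46 and 5.70 in the Detroit parent, 6.40 and 6.98 in the invasion subline of OECM1, 7.22 and 6.76 in the OECM1 parent, 3.24 and 3.25 in the Fadu invasion subline, with 3.37 and 3.21 in the Fadu parent. On this probe set the Detroit parent arrays lay above the dim limit, unlike those of SMAD4, and below the OECM1 parent arrays by a log2 difference of -0.91 that did not pass (SE 0.305, adjusted p = 0.185). On this probe set the OECM1 parent exceeded the Fadu parent at least 5.56-fold (log2 difference 3.70), and the Detroit parent exceeded it at least 2.95-fold (log2 difference 2.79). The Detroit-labelled subline lay at least 2.95-fold below the Detroit parent (log2 difference -2.88). On 210154_at the same 3 comparisons gave at least 1.64-fold, 2.06-fold and 2.06-fold, and on 210153_s_at, where not all arrays of the low groups were dim, they gave 3.99-fold, 4.25-fold and 4.88-fold. The brightest set, 210153_s_at, gave the smallest log2 difference between the OECM1 and Fadu parents relative to its error (2.00, SE 0.336, adjusted p = 0.0153, limma), and that call ended without Fadu parent replicate 1 or 2 or OECM1 parent replicate 2 (adjusted p = 0.199, 0.0587 and 0.0571). Its call between the Detroit subline and parent ended without Detroit parent replicate 1 (adjusted p = 0.0569).

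ELAC1, next to SMAD4, was dim on all arrays, with group means of 3.19 to 3.41. MEX3C, an RNA-binding protein gene, averaged 4.08 in the OECM1 parent and 2.84 in the Fadu parent (log2 difference 1.24, SE 0.295, adjusted p = 0.0758). Its only array above the dim limit was OECM1 parent replicate 1, at 4.67, beside 3.49 on replicate 2. MBD2, a methyl-CpG binding protein gene, was bright in every group, with means of 7.64 to 8.10. Of 33 listed genes of this arm on the array, SMAD4 included, 2 were called higher in the OECM1 than in the Fadu parent. A further 0 were called lower, where 1.77% of 11963 genes were called in either direction. The 2 were SMAD4 and ME2. The list was built around SMAD4, SMAD2 and SMAD7, so the SMAD4 call is no result about the arm. That leaves only the ME2 call, a count near the share over all genes. ME2, SMAD4 and NEDD4L, a ubiquitin ligase gene, had a Fadu group mean over 1 log2 unit from the mean of the other 5 groups. NEDD4L averaged 7.24 in the OECM1 parent and 5.44 in the Fadu parent, a log2 difference of 1.79 (adjusted p = 0.0540). POLI, a DNA polymerase gene, was also called in the F test between the 3 parents (adjusted p = 0.0476, limma). It averaged 3.26 in the Detroit parent, 4.62 in the OECM1 parent and 3.13 in the Fadu parent. Only OECM1 parent replicate 2, at 5.22, lay above the dim limit. Replicate 1 of that group read 4.03, and the OECM1 invasion subline averaged 3.59. The POLI call held under 7 of 20 alternatives. The arrays measured RNA, and gene copy number was not tested.

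**Figure D2:**
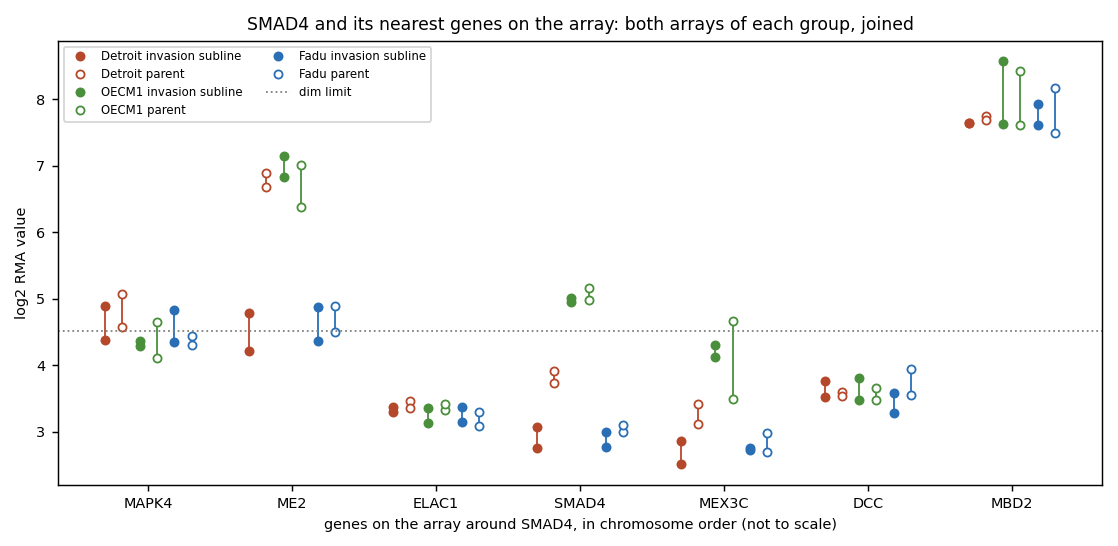
Log2 RMA values (y axis) of SMAD4 and the 3 nearest genes on each side with a probe set of their own, in chromosome order and not to scale (x axis), for the 6 groups. The 2 arrays of a group are joined by a line, filled for sublines and open for parents. ME2 and SMAD4 are low in both Fadu groups and in the Detroit-labelled subline, while MBD2 stays between 7.49 and 8.57 on all arrays.

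ID3 followed the same low groups. On probe set 207826_s_at its values were 5.30 and 5.08 in the Detroit-labelled subline, 7.58 and 9.53 in the Detroit parent, 6.91 and 7.84 in the invasion subline of OECM1, 8.43 and 8.71 in the OECM1 parent, 5.13 and 4.94 in the Fadu invasion subline, with 5.04 and 4.89 in the Fadu parent. The 6 arrays of the 3 low groups lay between 4.89 and 5.30, close to the dim limit, and the other 6 lay at 6.91 or above. Between parents, the OECM1 parent exceeded the Fadu parent by 3.61 on the log2 scale (SE 0.539, adjusted p = 0.00831, limma), and the Detroit parent exceeded the Fadu parent by 3.59 (SE 0.539, adjusted p = 0.00901). The Detroit and OECM1 parents were neighbours in the order that did not differ beyond their spread (log2 difference -0.02, 95% interval -1.21 to 1.17). Without Fadu parent replicate 1 or 2 both calls ended (adjusted p = 0.0875 and 0.0616 for OECM1, 0.0835 and 0.0741 for Detroit), and the Detroit difference was 4.57 without Detroit parent replicate 1 and 2.61 without replicate 2.

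ID3 was also the member with the largest within-line difference. The Detroit-labelled subline averaged 5.19 ± 0.160 against 8.55 ± 1.38 in the Detroit parent (SD, n = 2), 10.3-fold lower (log2 difference -3.36, SE 0.539, adjusted p = 0.0102, limma). That call held when any single array was left out, with a log2 difference of -4.34 without Detroit parent replicate 1 and -2.39 without replicate 2. In OECM1 both subline arrays lay below both parent arrays, at a mean of 7.38 ± 0.659 against 8.57 ± 0.202, but the log2 difference of -1.20 (95% interval -2.38 to -0.01) did not pass over all probe sets (adjusted p = 1.00). In Fadu the log2 difference was 0.07 (95% interval -1.12 to 1.26), with both groups near the dim limit.

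ID1 lay well above the dim limit in every group. Its values were 10.11 and 9.02 in the Detroit-labelled subline, 11.09 and 12.29 in the Detroit parent, 10.98 and 10.96 in the invasion subline of OECM1, 10.56 and 11.68 in the OECM1 parent, 9.12 and 10.24 in the Fadu invasion subline, with 10.47 and 9.80 in the Fadu parent. The group means of ID1 spanned 2.13 log2 units. As for ID3, they were higher in the Detroit parent and both OECM1 groups than in the Detroit-labelled subline and the Fadu groups. The highest mean was in the Detroit parent for ID1 and in the OECM1 parent for ID3. In Detroit both subline arrays lay below both parent arrays, with a log2 difference of -2.13 (SE 0.555, adjusted p = 0.0948). No ID1 difference passed the threshold: the Detroit parent lay 1.55 above the Fadu parent (SE 0.555, adjusted p = 0.283) and the OECM1 parent 0.99 above it (SE 0.555, adjusted p = 0.596).

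ID2 was dim outside the Detroit parent. On probe set 201565_s_at the Detroit-labelled subline read 3.28 and 3.39, against 4.47 and 6.29 in the Detroit parent, the last being the only 1 of 12 arrays above the dim limit. The OECM1 invasion subline read 3.38 and 4.16, the OECM1 parent 3.75 and 3.45, the Fadu invasion subline 3.06 and 3.02, and the Fadu parent 3.01 and 3.25. By the group means, the Detroit-labelled subline was at least 1.82-fold lower than the Detroit parent (log2 difference -2.05, SE 0.449, adjusted p = 0.0458, limma), and the Detroit parent was 2.25 log2 units above the Fadu parent (SE 0.449, adjusted p = 0.0364). The bound of 1.82-fold rests on Detroit parent replicate 2, since replicate 1 was itself dim. The first call ended without any single array other than Detroit parent replicate 1 (adjusted p between 0.0602 and 0.134), and the second without Detroit parent replicate 2 or any array of Fadu or OECM1 (adjusted p between 0.0511 and 0.290). Without Detroit parent replicate 2, the bright array, the log2 differences were -1.14 and 1.34, and without replicate 1 they were -2.96 and 3.16. The first held under only 3 of 19 alternatives and the second under 6 of 20. Probe set 201566_x_at was dim throughout, between 2.86 and 3.34.

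**Figure D3:**
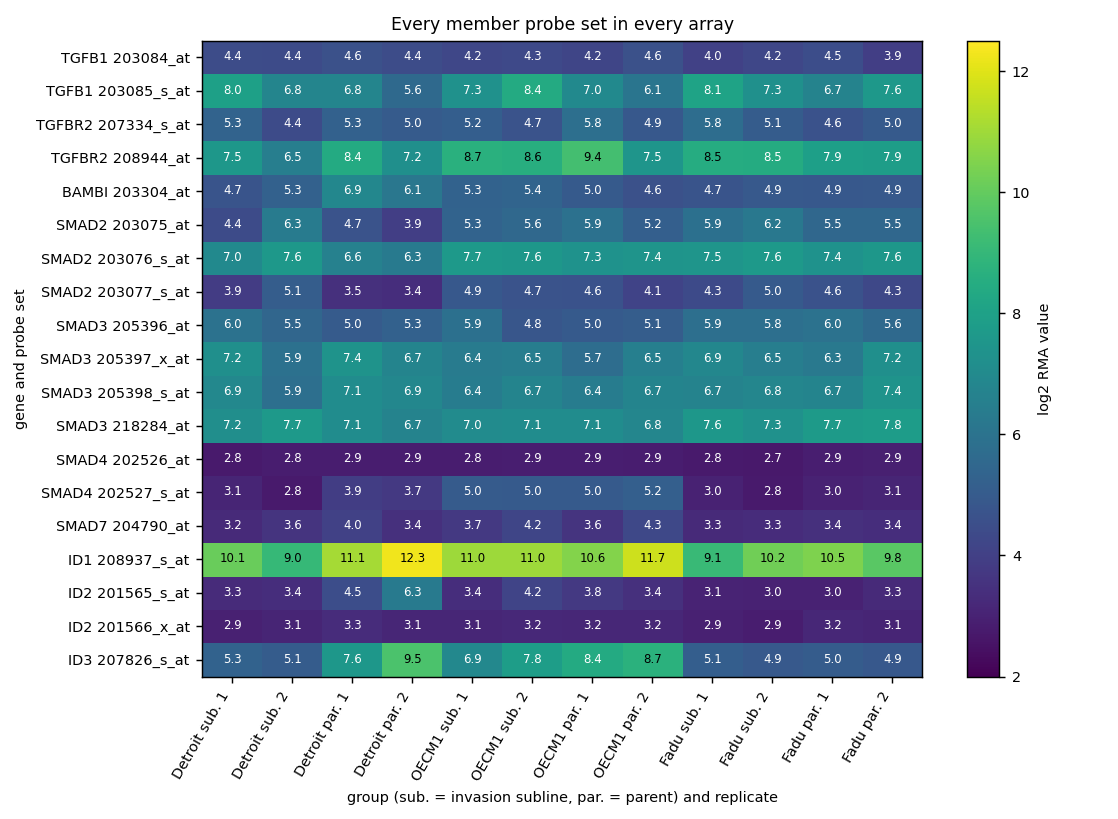
Log2 RMA value (colour and printed number) of all 19 probe sets (rows) on all 12 arrays (columns; sub. is invasion subline, par. is parent, then the replicate). The SMAD4 202527_s_at row is near 5 only in the 4 OECM1 columns, and in the ID2 201565_s_at row 1 Detroit parent array stands out at 6.3.

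Counted together, 4 of the 19 probe sets were called in the Detroit comparison as labelled, all lower in the subline (SMAD4, BAMBI, ID2 and ID3), where 1.91% of all probe sets were called and 1.18% were called lower. The members were chosen with earlier results of these data known, so this count and those between parents below only describe them. The median log2 difference was -0.26 over the members and -0.01 over all probe sets. In the OECM1 comparison limma called 0 of 19, against 0.0225% of all probe sets. At an unadjusted p under 0.05 there was 1 member (ID3), beside 698 of all 22215 probe sets. In the Fadu comparison limma called 0 of 19, against 0.0135% of all probe sets. At an unadjusted p under 0.05 there were 2 members, beside 450 of all 22215 probe sets. Both members were dim probe sets, SMAD4 202526_at and ID2 201566_x_at. The median member difference was 0.03 in OECM1 and -0.08 in Fadu, beside 0.00 and -0.04 over all probe sets. The subline and parent arrays did not overlap for 11, 5 and 7 member probe sets in Detroit, OECM1 and Fadu, while this held for 36.1%, 24.6% and 31.8% of all probe sets, so separation of 2 arrays from 2 is common on these arrays and the OECM1 and Fadu counts lie near that background.

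**Figure D4:**
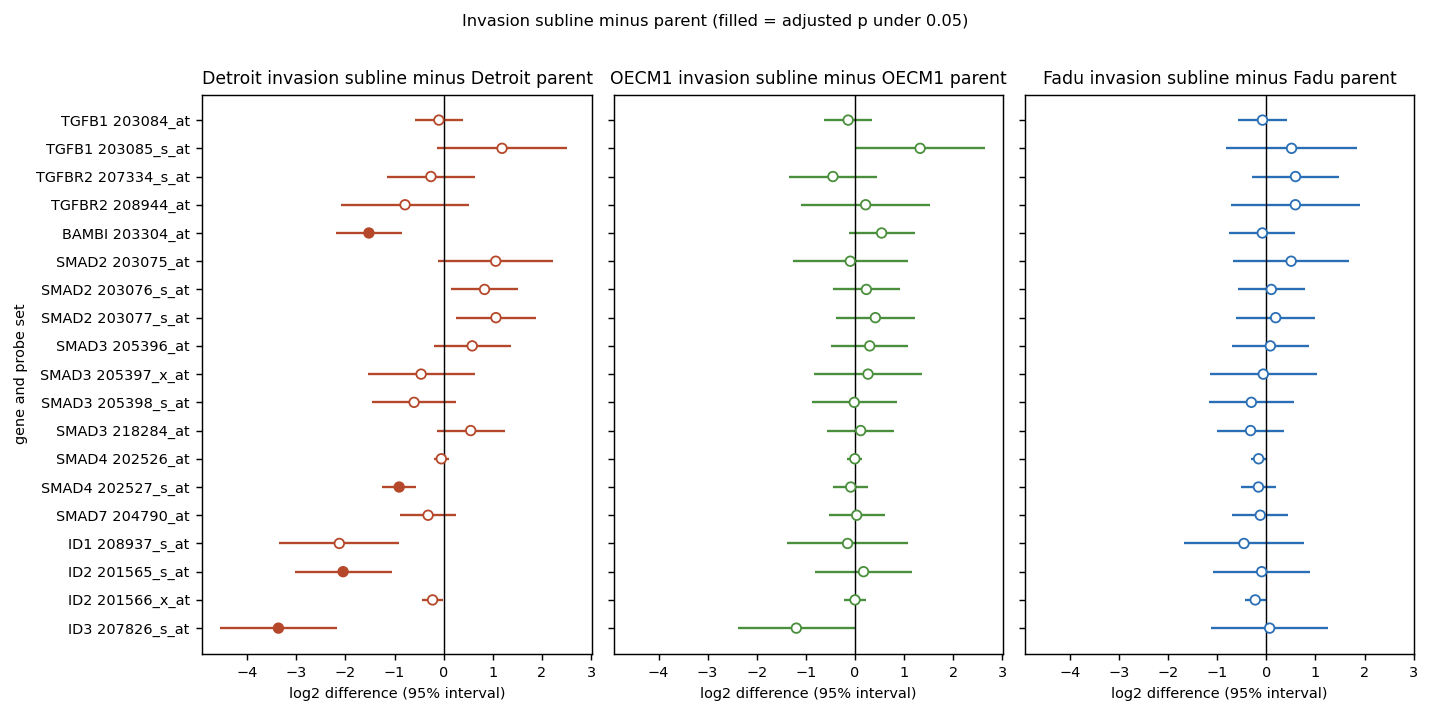
Log2 difference of invasion subline minus parent (x axis) for the 19 probe sets (y axis) in Detroit, OECM1 and Fadu, from the limma fit. Lines are 95% intervals and filled points passed an adjusted p of 0.05. The 4 filled points, BAMBI, SMAD4, ID2 and ID3, are all in the Detroit panel and all lie below 0.

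Whether the subline effects differed between lines was tested by an F test over the 3 effects. None of the 19 member probe sets passed (limma, 0.401% of all probe sets called). At an unadjusted p under 0.05 there were 4, beside 1443 of all 22215 probe sets. BAMBI had adjusted p = 0.189, ID3 0.248, SMAD4 202527_s_at 0.369 and ID2 201565_s_at 0.428. Without Detroit parent replicate 1, ID2 and ID3 passed (adjusted p = 0.0153 and 0.0320). With both arrays of the Detroit-labelled subline left out, which was decided after seeing the data, the OECM1 and Fadu effects differed for 0 of 19 members.

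Between the 3 parents, by contrast, an F test called 4 of 19, where 3.02% of all probe sets were called: SMAD4 202527_s_at (adjusted p = 0.000241, limma), ID3 (0.00551), BAMBI (0.0166) and ID2 201565_s_at (0.0388). By pairs, 4 of 19 passed between the Detroit and Fadu parents, all higher in Detroit (1.39% of all probe sets called), 2 between the Detroit and OECM1 parents, BAMBI higher and SMAD4 lower in Detroit (2.12%), and 2 between the OECM1 and Fadu parents, both higher in OECM1 (1.48%). The ID3 call in the F test ended without Fadu parent replicate 1 or 2 (adjusted p = 0.0539 and 0.0537), the BAMBI call without Detroit parent replicate 1 or Fadu parent replicate 1 (0.145 and 0.0604), and the ID2 call without any of 9 arrays (adjusted p between 0.0511 and 0.146). The SMAD4 call held without any single array. With both arrays of the Detroit-labelled subline left out of the fit, the 4 calls between parents held. Between the Detroit-labelled subline and the Fadu parent 0 of 19 were called by limma, as were 0% of all probe sets. At an unadjusted p under 0.05 there were 0 of 19, beside 727 of all 22215 probe sets. These comparisons share parent arrays, so they are not independent of each other.

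Other genes whose brightest probe set spanned at least 2 log2 units over the group means were ranked by their Pearson correlation with SMAD4, ID1, ID2 and ID3 over the 12 arrays, among 854 candidates. The arrays fall into lines, so these correlations describe the lines and carry no test. The genes most like SMAD4 were FLII (r = 0.969), TTC19 (r = 0.967) and NRG1 (r = 0.963), all highest in the 2 OECM1 groups. Those most like ID3 were ALDH7A1 (r = 0.963), RHOBTB3 (r = 0.938) and DUSP10 (r = 0.909). ID3 itself was the second gene most like ID1 (r = 0.847), after POLA2 (r = 0.891) and beside AOPEP (r = 0.847). ID2 was most like PLA2G4A (r = 0.923), SNAP29 (r = 0.900) and PLAAT3 (r = 0.890).

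The rest of the pathway was read from gene lists, with 1 probe set per gene, the one of highest mean. The lists were chosen with earlier results of these data known, so their counts beside all genes are descriptions and not tests. Of 24 TGF-beta target genes on the array, 4 fell in the Detroit-labelled subline relative to the Detroit parent, 0 rose and 20 did not pass, where 1.29% of all genes fell, and their median log2 difference was -0.42 against -0.01 over all genes. IGFBP7, a secreted growth factor binding protein, was 22.8-fold lower (log2 difference -4.51, SE 0.500, adjusted p = 0.00107, limma), TGFBI, a matrix protein, was 24.6-fold lower, the fibronectin gene FN1 was 12.4-fold lower and the basement membrane collagen gene COL4A1 was 5.07-fold lower. The FN1 call ended without Detroit-labelled subline replicate 2 or Detroit parent replicate 1 (adjusted p = 0.0528 and 0.122). Leaving out the last of these also ended the TGFBI call (adjusted p = 0.0505). A second COL4A1 probe set was not called in this comparison, with a log2 difference of -1.34 (adjusted p = 0.279, limma). The COL4A1 call ended without any single array other than Detroit-labelled subline replicate 1 or Detroit parent replicate 2 (adjusted p between 0.0561 and 0.228). Without Detroit parent replicate 1 the log2 differences of TGFBI, FN1 and COL4A1 were -3.76, -2.70 and -1.49, and without replicate 2 they were -5.48, -4.57 and -3.20. The count was 2 without Detroit-labelled subline replicate 2, 1 without Detroit parent replicate 1 and 0 with only the 4 arrays labelled Detroit. In OECM1 0 of 24 passed and the median was 0.34, with VIM, the vimentin gene, at 2.81 (adjusted p = 0.237) and IGFBP3 at 2.21 (adjusted p = 1.00). In Fadu 0 of 24 passed and the median was 0.33, with COL4A1 at 1.93 and CCN2, a matricellular protein gene, at 1.66 (adjusted p = 1.00 for both). Limma called 0% of all 11963 genes in OECM1 and 0.0167% in Fadu.

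The same target genes separated the parents. By the F test 6 of 24 differed, where 3.44% of all genes did. This count too describes a list chosen with earlier results known. SNAI2, which encodes the transcription factor Slug, was 9.10-fold lower in the Detroit parent than in the OECM1 parent (adjusted p = 0.00226, limma), and IGFBP3, an insulin-like growth factor binding protein, was 108-fold higher in the Detroit parent than in the OECM1 parent (log2 difference 6.76, 5.90 to 7.05 over the alternatives, adjusted p = 0.00256). TGFBI was 19.8-fold higher in the Detroit parent than in the Fadu parent (adjusted p = 0.0106) and 22.5-fold higher in the OECM1 parent than in the Fadu parent (adjusted p = 0.00831), with log2 differences of 4.31 and 4.49. These were 3.42 and 3.60 without Fadu parent replicate 1, 5.19 and 5.38 without Fadu parent replicate 2, and for Detroit 3.44 and 5.17 without Detroit parent replicate 1 or 2. COL4A1 was 7.93-fold higher in the OECM1 parent than in the Fadu parent (adjusted p = 0.0150). The TGFBI calls ended without Fadu parent replicate 1 (adjusted p = 0.121 and 0.100), the Detroit one also without replicate 1 of the Detroit parent (adjusted p = 0.0854), and the OECM1 one also without replicate 1 of the OECM1 parent (adjusted p = 0.0688). The COL4A1 call ended without Fadu parent replicate 1 or 2 or OECM1 parent replicate 1 (adjusted p = 0.114, 0.108 and 0.0929).

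The lists of ligands and receptors gave few calls, and so did all genes. Of 10 other ligands of the family, 0 passed between subline and parent in any line. Of all 11963 genes, 2.17% were called in Detroit, 0% in OECM1 and 0.0167% in Fadu. Counts of 0 in lists this short are therefore no result about their genes, here and in the lists below. In Detroit TGFB2 had a log2 difference of -2.89 and BMP4 of -2.18 (adjusted p = 0.103 for both). On Detroit parent replicates 1 and 2 TGFB2 read 7.83 and 5.03, and BMP4 read 8.22 and 5.72. Both TGFB2 arrays of the Detroit-labelled subline were dim, at 3.44 and 3.65. In OECM1 BMP2 had 1.68 (adjusted p = 0.361), with a list median of 0.53 against 0.01 over all genes, and in Fadu GDF15 had -2.23 (adjusted p = 1.00). INHBA, the activin A subunit gene, was the 1 of these 10 that differed between parents (adjusted p = 0.0149 by the F test, limma), where 3.44% of all genes did. It was at least 5.42-fold higher in the OECM1 parent than in the Fadu parent (log2 difference 2.59, adjusted p = 0.0156) and 4.64-fold lower in the Detroit parent than in the OECM1 parent (adjusted p = 0.0261). The first of these ended without Fadu parent replicate 1 or 2 (adjusted p = 0.121 and 0.112), the second without Detroit parent replicate 1 or 2 or OECM1 parent replicate 1 (adjusted p = 0.104, 0.148 and 0.0861). The log2 difference of the OECM1 parent from the Fadu parent was 1.79 or 3.40 when the first or second array of the OECM1 parent was left out, and that between the Detroit and OECM1 parents was then -1.41 or -3.02. Of 10 other receptors 0 passed in any of these comparisons. The largest differences were ACVR1B, an activin receptor, at 0.87 in Detroit (adjusted p = 0.534), the co-receptor gene ENG at -1.30 in OECM1 (adjusted p = 1.00) and the co-receptor gene TGFBR3 at 0.37 in Fadu (adjusted p = 1.00). Of the 4 other SMADs 0 passed, with SMAD1, a BMP receptor SMAD, at -0.54 in Fadu.

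Among 27 regulators of latency, ligand access and SMAD turnover, 2 passed in Detroit, 1 in each direction, where 2.17% of all genes were called. THBS1, a matrix protein that can activate latent TGF-beta, was 10.4-fold lower in the Detroit-labelled subline (log2 difference -3.38, SE 0.732, adjusted p = 0.0435, limma), and TRIM33, a ubiquitin ligase that binds SMADs, was 3.01-fold higher (log2 difference 1.59, SE 0.325, adjusted p = 0.0337). The THBS1 call ended when any array of Detroit-labelled subline replicate 2, Detroit parent replicate 1, the Fadu groups or the OECM1 parent was left out (adjusted p between 0.0509 and 0.296), with log2 differences of -2.48 and -4.28 without Detroit parent replicate 1 or 2, and the TRIM33 call without Detroit-labelled subline replicate 2, either Detroit parent array or any Fadu array (adjusted p between 0.0633 and 0.159). In OECM1 and Fadu 0 of 27 passed. Of 10 BMP target genes besides the ID genes 0 passed in any line, with the polyamine enzyme gene SAT1 at -2.06 in Detroit (adjusted p = 0.240), RUNX3 at 1.35 in OECM1 (adjusted p = 0.237) and SAT1 at -1.22 in Fadu (adjusted p = 1.00). Of 12 genes comprising ID4 and partners of ID proteins 0 passed, with TCF12, a bHLH partner, at 0.76 in Detroit (adjusted p = 0.723) and HES1 at 1.07 in OECM1 (adjusted p = 1.00).

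**Figure D5:**
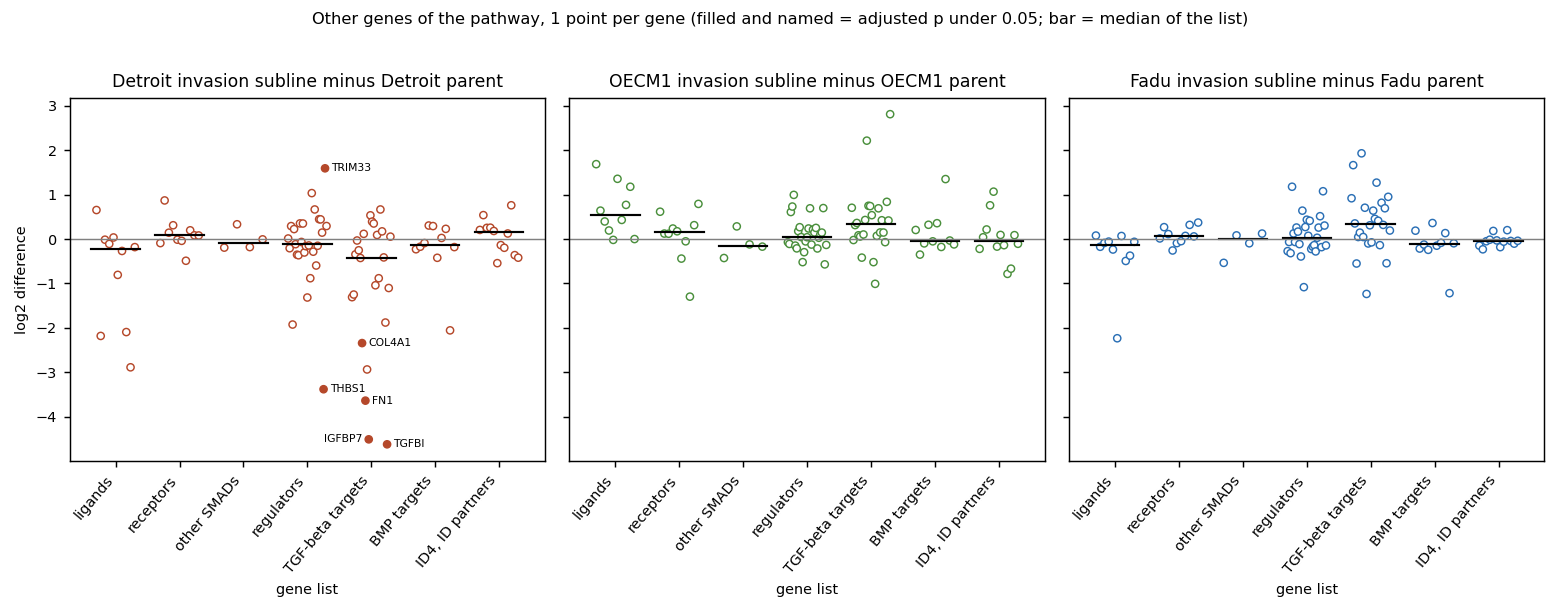
Log2 difference of invasion subline minus parent (y axis) for the other genes of the pathway by list (x axis), with 1 point per gene and a bar at the list median, in Detroit, OECM1 and Fadu. Filled and named points passed an adjusted p of 0.05 over all probe sets. They are in the Detroit panel, 5 below 0 and TRIM33 above it.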

How the data were processed

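Total RNA of 12 cell line samples was hybridised to Affymetrix arrays, 1 per sample. Per the submitters' processing notes, which name RMA and Partek version 7, the authors deposited log2 values, 22283 probe sets for each array. A genome build was not given in the sources used here. No depth exists for arrays, and 2 arrays per group limit the precision.

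Leaving out 68 control probe sets, all 22215 others were fitted with limma 3.58.1 in R 4.3.3 (a mean for each of 6 groups, 1 shared spread, empirical Bayes with an intensity trend), with no filter on dim probe sets. Two-sided p-values were Benjamini-Hochberg adjusted over 22215 probe sets, with a threshold of 0.05. Of these, 19065 had 1 gene symbol, 1043 several and 2107 none; 11963 genes were represented in list counts by the probe set of highest mean, and 0 symbols changed through the reference gene table. There were 0 unused columns of values.

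Named list genes were up to 4 called ones by smallest p per list, for each line and for the test between parents, or the 2 of largest difference, some of which are given only by the list's count. Genes of chromosome 18 were named by a Fadu mean over 1 log2 unit from the other groups, and MEX3C, ELAC1 and MBD2, chosen after their values were seen, as neighbours of SMAD4. The members and lists were chosen with earlier results of these data known. Bounds on folds against the dim limit were chosen after seeing the data. The fitting step was tested on simulated data. Alternatives were a dim filter, 1 probe set per gene, only the arrays compared, no trend, array weights, median centring, a replicate block and leaving out each array.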

Additional observations from a re-analysis of the deposited data

Results flagged for a closer look

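Of the members and the list genes named by the rule, 2 had subline effects that differed between lines by the F test of limma, and none of the 19 member probe sets did. IGFBP7, a TGF-beta target, had log2 differences of -4.51 in Detroit, 0.75 in OECM1 and -0.10 in Fadu (SE 0.500, adjusted p = 0.0140), a call that ended without Detroit parent replicate 1 (adjusted p = 0.0712). KRT14, a basal keratin read here as an epithelial marker, had 6.47 in Detroit, -0.47 in OECM1 and -0.02 in Fadu (SE 0.621, adjusted p = 0.00947). The KRT14 call was not followed over the alternatives. Both rest on the arrays labelled Detroit invasion subline, which resembled the Fadu parent.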

How the results depend on the processing

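Over 21 alternative settings, 186 alternatives of the counts were computed, of which 151 stayed within 1.5 times the count as reported and 35 did not. The 151 include counts of 0 that stayed at 0. Of the called differences of single probe sets followed over the alternatives, 0 reversed direction. Fitting only the arrays compared does not apply to the test of differences between lines, which uses all arrays. Of the 19 members, 4 were called between the Detroit invasion subline as labelled and the Detroit parent, against 2 with the dim filter, 2 with array weights, 0 with only the arrays compared, 1 with a replicate block, and 2 to 5 without single arrays. In the OECM1 and Fadu comparisons the count stayed at 0 under every alternative run. For differences of the subline effects between lines it was 0 as reported and 0 to 2 without single arrays, with 2 without Detroit parent replicate 1. Between the 3 parents it was 4, against 1 with the replicate block and 1 to 4 without single arrays. Between the Detroit and Fadu parents it was 4, against 2 with the dim filter, 2 without the intensity trend, 0 with the replicate block and 0 to 4 without single arrays. Between the Detroit and OECM1 parents it was 2, against 0 with only the arrays compared, 0 with the replicate block and 1 to 2 without single arrays. Between the OECM1 and Fadu parents it was 2, against 1 with the replicate block and 1 to 2 without single arrays. The replicate numbers were not shown to pair the arrays, since the deviations of same-numbered arrays correlated at -0.165 in Detroit, -0.401 in OECM1 and -0.408 in Fadu. With the numbers crossed, which was decided after seeing the data, 2 members were called between the Detroit and Fadu parents, and 693 of all probe sets in the Detroit comparison. Over all probe sets the 425 calls in the Detroit comparison became 0 with only the arrays compared, 162 with the block, and 181 to 1350 without single arrays, while the 672 calls between parents became 104 with the block. The 5 OECM1 calls became 0 to 14 without single arrays and the 3 Fadu calls became 0 with the block. The cause of these changes was not tested. Signal near background limits SMAD7, both SMAD4 probe sets, ID2, TGFB1 203084_at and SMAD2 203077_s_at. Of the 12 arrays, SMAD4 202527_s_at lay above the dim limit on 4, TGFB1 203084_at on 2 and SMAD2 203077_s_at on 6.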
